A study of Mus musculus with 8 samples.

Results

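The Notch genes examined in the NMuMG libraries were 3 receptors (*Notch1*, *Notch2* and *Notch3*), 3 ligands (*Jag1*, *Jag2* and *Dll1*), 3 targets of the pathway (*Hes1*, *Hey1* and *Heyl*) and the glycosyltransferase *Lfng*. These 10 genes were found by symbol among the 37310 genes of the count table. NMuMG cells are epithelial cells established from the normal mammary gland of the mouse. RNA was sequenced from control cells and from cells labelled KO, for depletion of *Lnc-Nr6a1*, either untreated or given TGF-β1 at 10 ng/mL for 2 h, with 2 libraries in each of the 4 groups. *Lnc-Nr6a1* is a long non-coding RNA and the host gene of miR-181a-2 and miR-181b-2. Per the study, CRISPR-Cas9 guides in its promoter and first exon were used to delete the stretch between them, and the depleted cells are written as Lnc-Nr6a1-/-, but which clone or clones gave the libraries is not given in the sources used here.

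In Notch signaling, a ligand of the Jagged or Delta-like type on one cell binds a Notch receptor on its neighbour. The receptor is then cut by an ADAM protease and by γ-secretase, and its intracellular domain enters the nucleus and joins RBPJ and Mastermind-like proteins to switch on targets such as the *Hes* and *Hey* genes, which code for transcriptional repressors. Fringe enzymes such as LFNG add sugars to the receptors and thereby change which ligands activate them. In epithelia the pathway is known for its part in cell fate and for its crosstalk with TGF-β, a cytokine that drives the epithelial-to-mesenchymal transition (EMT).

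After 2 h of TGF-β, the transcript of the ligand *Jag1* rose and those of the receptor *Notch1* and the target *Hes1* fell, both in control cells and in those labelled KO. *Notch2* rose with TGF-β in the libraries labelled KO, with no call in control cells, but the difference between these responses was not called. Between the genotypes, edgeR called no member in untreated cells, where DESeq2 called *Dll1*, whereas by edgeR *Jag1* and *Notch2* were higher in treated libraries labelled KO than in treated control libraries. The last difference depended on single libraries, as described under the treated cells. So did the call of *Notch2* with TGF-β and that of *Jag1* in control cells, as given for each gene. *Notch3* had at most 2 counts in any library and *Heyl* had 0 in all 8, so 8 of the 10 genes passed the filter on low counts and were tested.

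Library totals ranged from 4297832 to 13574397 counts, and all 4 treated libraries were deeper than the 4 untreated ones. A count of 0, which allows up to 3 counts, left room for between 0.238 and 0.661 CPM (counts scaled to library size) depending on the library, as far as counting error goes. *Lnc-Nr6a1*, annotated as *Gm13507*, had 3 and 14 counts in untreated control libraries, 25 and 35 after TGF-β, 11 and 7 in untreated libraries labelled KO and 0 and 0 in the treated ones. The targeted gene therefore separated the treated libraries by genotype and did not separate the untreated ones. Of 8 early TGF-β targets listed as a check of the treatment, 7 were called higher in each genotype, among them *Snai1*, at a log2 fold change of 4.23 ± 0.32 (SE) in control cells and 3.99 ± 0.30 in libraries labelled KO. Between treated genotypes, 2 of the 8 were called higher in libraries labelled KO, where 8.47% of all tested genes were, and 0 lower. These were *Snai1* (0.79 ± 0.23) and *Pmepa1* (0.94 ± 0.17), while of all 8 targets 5 were above 0 and 3 below. Luminal keratins and *Cdh1* were abundant, while the luminal markers *Epcam* (at most 2 counts) and *Cldn3* (0 counts) were practically absent. The summed level of the luminal markers was 5870 to 6970 CPM in untreated and 7940 to 10900 CPM in treated libraries. Basal markers summed to 2.87 to 5.91 CPM untreated and 23.9 to 42.1 CPM treated, with 4 of 6 at or under 3 counts in every library and *Krt14* making up most of the sum, and immune markers to between 2.16 and 5.71 CPM, with *Cd68* the only one of 6 over 3 counts. Fibroblast markers summed to at most 4.85 CPM and endothelial markers to at most 0.847 CPM, with *Kdr*, *Tie1* and *Sox17* at 0. The part of these shifts in the results on Notch genes was not tested, and in bulk RNA fewer cells of a type and less RNA per cell cannot be told apart.

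The 5′ flanks of *Notch1*, *Notch2* and *Jag1* are shown because these genes were called with TGF-β, and that of *Lfng* because it held the only match to the RBPJ letters. For 7 of the 10 genes the RefSeq table for GRCm38.p6 held a start site, with 2 for *Dll1*, giving 8 promoters, each read as the 250 bases before the start. *Hes1*, *Hey1* and *Heyl* had no entry. Capitals mark matches on either strand to the letters searched, which were GTGGGAA for RBPJ, CAGAC for SMAD proteins, TGANTCA for AP-1 and CACGNG for Hes and Hey repressors.

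Notch1, chr2:26503823-26504072, minus strand: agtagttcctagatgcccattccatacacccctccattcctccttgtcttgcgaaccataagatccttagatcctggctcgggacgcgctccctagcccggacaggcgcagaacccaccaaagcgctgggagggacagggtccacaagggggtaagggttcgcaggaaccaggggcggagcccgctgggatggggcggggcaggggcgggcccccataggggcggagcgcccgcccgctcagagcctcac

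Notch2, chr3:98013288-98013537, plus strand: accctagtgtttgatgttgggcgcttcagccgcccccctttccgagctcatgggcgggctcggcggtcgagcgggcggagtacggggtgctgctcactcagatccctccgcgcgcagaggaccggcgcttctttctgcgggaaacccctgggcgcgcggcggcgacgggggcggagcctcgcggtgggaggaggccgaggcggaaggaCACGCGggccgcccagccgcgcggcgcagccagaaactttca

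Jag1, chr2:137116521-137116770, minus strand: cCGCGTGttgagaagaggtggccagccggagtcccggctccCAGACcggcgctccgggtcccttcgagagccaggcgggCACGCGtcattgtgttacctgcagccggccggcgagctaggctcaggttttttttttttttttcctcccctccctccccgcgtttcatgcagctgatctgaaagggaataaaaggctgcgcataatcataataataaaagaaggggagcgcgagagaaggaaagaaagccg

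Lfng, chr5:140607091-140607340, plus strand: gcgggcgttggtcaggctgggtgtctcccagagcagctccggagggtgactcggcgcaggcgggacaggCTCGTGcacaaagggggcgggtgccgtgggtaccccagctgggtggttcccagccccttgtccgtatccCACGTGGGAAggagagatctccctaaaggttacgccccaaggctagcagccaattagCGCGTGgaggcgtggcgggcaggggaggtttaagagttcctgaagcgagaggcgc

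The *Notch1* flank held none of the motifs, the *Notch2* flank held 1 Hes and Hey match, and the *Jag1* flank held 1 SMAD match, 209 bases before the start, and 2 Hes and Hey matches. The only RBPJ match among the 8 promoters lay in *Lfng*, 109 bases before the start, and overlapped a Hes and Hey match, so that both appear as a single run of capitals. Over the 8 promoters, 12.5% held the RBPJ letters, against 5.4% of all 32851 promoters of the same length. For SMAD the shares were 50.0% and 42.2%, for AP-1 12.5% and 6.7%, and for Hes and Hey 75.0% and 23.5%. The 8 promoters contained 56.0 to 87.2% GC, against a median of 52.4% over all promoters. A match of letters is a description and not a binding site.

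Transcripts carrying a match to the seed of miR-181 are shown because the depleted RNA hosts a pair of miR-181 genes. The mature sequences from RefSeq, with the seed (bases 2 to 8) in capitals, share that seed.

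mmu-miR-181a-5p: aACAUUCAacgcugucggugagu

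mmu-miR-181b-5p: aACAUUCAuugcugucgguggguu

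In the longest annotated 3′ UTR of each gene (GENCODE vM1), 2 of the 10 Notch genes held the seed match TGAATGT, here in capitals, against 14.4% of 20007 genes.

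Notch2, from 3′ UTR base 2630 for the match: aaccagcgcgtTGAATGTacgaggactgt

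Jag1, from 3′ UTR base 213 for the match: gcaaaaactagTGAATGTgccctggtgtc

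The genes with these matches, *Notch2* and *Jag1*, are also those called between genotypes after TGF-β, which is given as a description with no test. Those calls depended on single libraries. Between untreated genotypes edgeR called neither, with log2 fold changes of 0.01 ± 0.14 for *Notch2* and -0.63 ± 0.29 for *Jag1*. Over the tested genes with an annotated 3′ UTR, the 1955 with a match had a median log2 fold change of -0.036 between untreated genotypes, against 0.036 for the 9254 without one, and the medians in treated cells were -0.006 and 0.031.

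*Notch1*, the receptor best known for roles in progenitor cells and T lineage cells, lies on chr2:26313423-26372183 (mm9, minus strand, 14.23 kb of exon). Its level was 116 and 111 CPM in untreated control libraries, 29.7 and 23.8 CPM after TGF-β, 87.5 and 113 CPM in untreated libraries labelled KO and 33.4 and 35.4 CPM after TGF-β. All treated libraries were below all untreated ones, and the untreated groups overlapped. *Notch1* fell 4.24-fold with TGF-β in control cells (log2 fold change -2.08 ± 0.18, SE, edgeR's quasi-likelihood test with Benjamini-Hochberg adjustment, adjusted p = 0.000507). In libraries labelled KO it fell 2.91-fold (log2 fold change -1.54 ± 0.18, edgeR, adjusted p = 0.00166). Both calls held in every alternative run. Genes annotated on the opposite strand share 1068 and 414 bases of its exons, but had 51 and 7 counts over all libraries.

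*Notch2*, a receptor of similar build, lies on chr3:97817461-97954290 (mm9, plus strand, 10.51 kb of exon). Its level was 253 and 277 CPM in untreated control libraries and 340 and 309 CPM after TGF-β. In libraries labelled KO the level was 259 and 276 CPM untreated and 471 and 550 CPM after TGF-β. The untreated groups overlapped, and the treated libraries labelled KO were the highest of all. With TGF-β, *Notch2* rose 1.91-fold in libraries labelled KO (log2 fold change 0.93 ± 0.14, edgeR, adjusted p = 0.00538). In control cells the log2 fold change was 0.29 ± 0.14 (edgeR, adjusted p = 0.212). The call in libraries labelled KO was lost without KO replicate 1 (log2 fold change 0.89, adjusted p = 0.0782) or without KO replicate 2 (0.98, adjusted p = 0.0657), in edgeR fits that leave the untreated group with 1 library assumed to vary like the others.

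*Notch3* (chr17:32257765-32303825, mm9), a receptor known from vascular smooth muscle, was detected with 1 and 2 counts in untreated controls, 1 count in a treated library labelled KO and 0 in the other 5. Each of these values was at or under the limit that a count of 0 allows, so no fold change was computed.

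Per kilobase of exon, *Notch2* exceeded *Notch1* in every library, and the distance between them widened with TGF-β. The exon length merges all annotated transcripts, 14 for *Notch1* and 2 for *Notch2*, so the size of their ratio depends on it. The ratio of *Notch2* to *Notch1* was 2.95 and 3.39 in untreated control libraries and 15.5 and 17.6 after TGF-β, and in libraries labelled KO it was 4.01 and 3.32 untreated and 19.1 and 21.1 after TGF-β. The untreated ratios of the genotypes overlapped and the treated ratios did not. The ratio was not tested, and groups of 2 libraries can separate without a difference between genotypes.

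*Jag1*, the main Jagged ligand of many epithelia, lies on chr2:136907192-136942380 (mm9, minus strand, 5.83 kb of exon). Untreated control libraries had 52.1 and 66.5 CPM, and treated ones 330 and 209 CPM. Untreated libraries labelled KO had 38.8 and 38.0 CPM, and treated ones 410 and 701 CPM. Every treated library was above every untreated one, and in either state the genotypes did not overlap, in opposite orders. *Jag1* rose 4.54-fold with TGF-β in control cells (log2 fold change 2.18 ± 0.29, edgeR, adjusted p = 0.00304) and 14.5-fold in libraries labelled KO (3.86 ± 0.31, edgeR, adjusted p = 0.000313). The call in control cells was lost without control replicate 1 (log2 fold change 2.02, edgeR, adjusted p = 0.0536).

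*Jag2*, a second Jagged ligand (chr12:114146801-114167706, mm9), was rare, at 4.70 and 5.0 CPM in untreated and 4.59 and 3.70 CPM in treated control libraries. Libraries labelled KO had 2.42 and 1.73 CPM untreated and 1.55 and 1.91 CPM after TGF-β. All 4 libraries labelled KO were below all 4 control libraries, but the edgeR test made no call in either state, as given for each genotype comparison.

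*Dll1*, a Delta-like ligand (chr17:15504318-15513836, mm9), showed the opposite order. Its level was 2.17 and 2.93 CPM in untreated and 3.28 and 1.80 CPM in treated control libraries, against 9.48 and 7.44 CPM in untreated and 7.01 and 5.17 CPM in treated libraries labelled KO. No control library reached the lowest library labelled KO. An opposite-strand transcript sharing 867 bases of its exons had 8 counts in all.

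Per kilobase of exon, *Jag1* made up most of the summed level of the 3 ligands in every library. Its share was 84.2% and 85.5% in untreated control libraries, 96.7% and 96.4% after TGF-β, 70.1% and 74.9% in untreated libraries labelled KO and 97.2% and 98.6% after TGF-β. The untreated libraries labelled KO were the lowest, and all treated libraries were above all untreated ones.

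**Figure D1:**
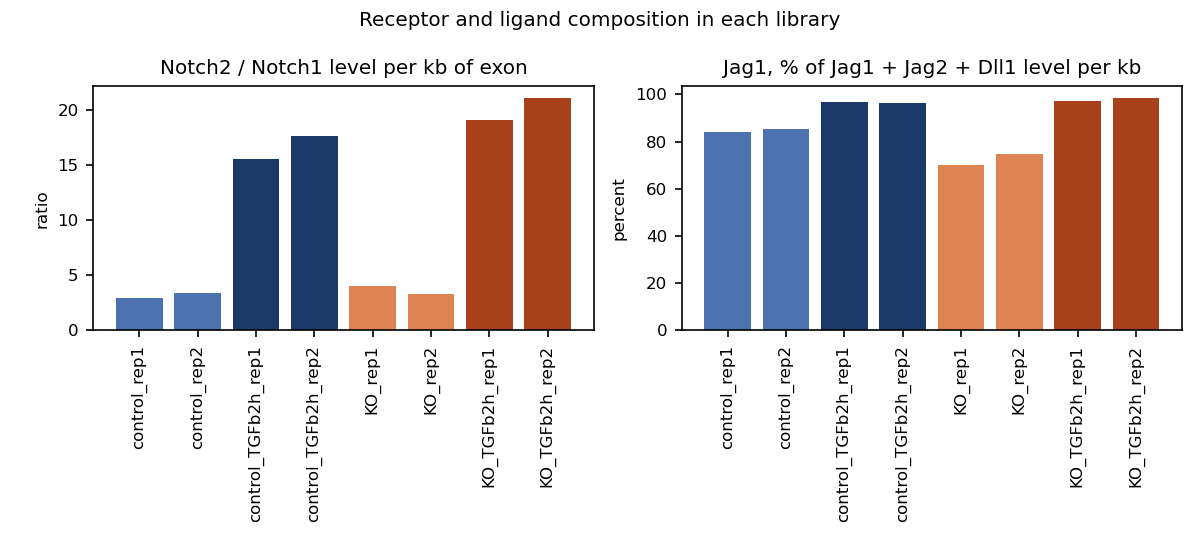
Receptor and ligand composition in each of the 8 libraries, as the ratio of Notch2 to Notch1 level per kb of exon (left) and the percent of Jag1 in the summed level of Jag1, Jag2 and Dll1 per kb of exon (right). The receptor ratio lies between 2.95 and 4.01 in untreated libraries and between 15.5 and 21.1 in treated ones, and the Jag1 share between 70.1% and 85.5% and between 96.4% and 98.6%.

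Among the targets, *Hes1*, a repressor of the basic helix-loop-helix type that responds early to Notch, lies on chr16:30064470-30067882 (mm9, plus strand, 2.04 kb of exon). Its level was 35.7 and 39.5 CPM in untreated control libraries and 15.7 and 17.2 CPM after TGF-β, and 45.0 and 44.4 CPM in untreated libraries labelled KO and 13.1 and 13.8 CPM after TGF-β. Treated and untreated libraries did not overlap, and within each state the genotypes did not overlap either. *Hes1* fell 2.28-fold with TGF-β in control cells (log2 fold change -1.19 ± 0.17, edgeR, adjusted p = 0.00408) and 3.31-fold in libraries labelled KO (-1.73 ± 0.17, edgeR, adjusted p = 0.00079). Both calls held in every alternative run.

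*Hey1*, a related repressor (chr3:8663362-8667039, mm9), had 4 to 58 counts in a library. Control libraries had 2.29 and 3.30 CPM untreated and 3.56 and 6.14 CPM after TGF-β, and libraries labelled KO had 0.882 and 2.39 CPM untreated and 2.61 and 0.556 CPM after TGF-β. In libraries labelled KO the treated pair enclosed the untreated pair, so that the spread between libraries was larger than the difference between these 2 groups. *Heyl* (chr4:122910799-122927118, mm9), another member of that family, had no counts.

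*Lfng*, the Fringe enzyme (chr5:141083295-141091497, mm9), was more even. It had 23.4 and 24.8 CPM in untreated and 32.8 and 30.1 CPM in treated control libraries, and 32.4 and 39.7 CPM in untreated and 40.0 and 34.2 CPM in treated libraries labelled KO. The 2 untreated control libraries were the lowest, and the other groups overlapped, except that both treated libraries labelled KO were above both treated control libraries.

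**Figure D2:**
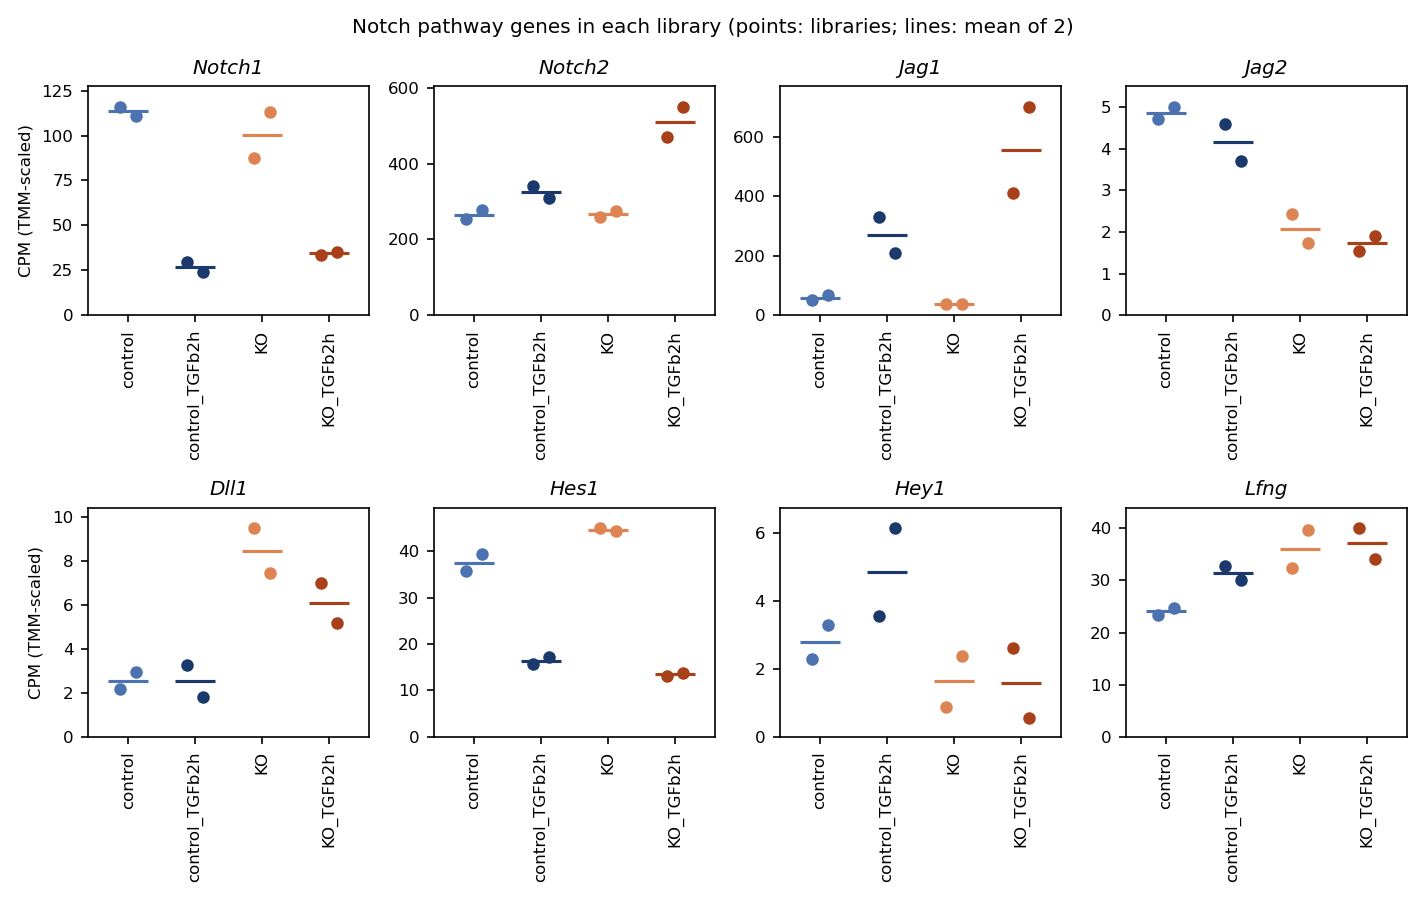
Level of the 8 tested Notch genes in each library, in TMM-scaled CPM on linear axes starting at 0, with a point for each library and a line at the mean of 2. Jag1 lies between 38.0 and 66.5 CPM in untreated and between 209 and 701 CPM in treated libraries, and Notch1 between 87.5 and 116 CPM and between 23.8 and 35.4 CPM.

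Levels of different genes were compared as RPKM, the CPM per kilobase of merged exon. The place of *Notch1* among them is uncertain, since its merged length comes from 14 annotated transcripts, against 1 for *Lfng* and 2 for *Jag1*. In untreated control libraries the order of mean levels was *Notch2* (25.2 ± 1.65 RPKM, SD, n = 2), *Hes1* (18.5 ± 1.33), *Lfng* (10.6 ± 0.427), *Jag1* (10.2 ± 1.75), *Notch1* (7.97 ± 0.277), *Hey1* (1.27 ± 0.322), *Jag2* (1.20 ± 0.0524) and *Dll1* (0.604 ± 0.127). *Lfng* and *Jag1*, and likewise *Hey1* and *Jag2*, did not differ beyond their spread. After TGF-β, *Jag1* had the highest mean, at 46.3 ± 14.6 RPKM in control libraries and 95.4 ± 35.3 RPKM in libraries labelled KO, ahead of *Notch2* at 30.9 ± 2.06 and 48.6 ± 5.36 RPKM. The libraries of *Jag1* and *Notch2* did not overlap in either treated group.

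In control cells, TGF-β was compared with no treatment to ask which members respond within 2 h. *Jag1* was called higher and *Notch1* and *Hes1* lower, so 1 of 8 tested members was called higher, where 4.69% of all 13028 tested genes were, and 2 of 8 lower, where 4.47% were. Genes were called at an adjusted p under 0.05 where the log2 fold change, in either direction, exceeded 0.5. The median absolute log2 fold change was 0.59 over the members and 0.33 over all tested genes. Without a call were *Hey1* (log2 fold change 0.79 ± 0.65), *Lfng* (0.38 ± 0.18), *Notch2* (0.29 ± 0.14), *Jag2* (-0.22 ± 0.37) and *Dll1* (0.00 ± 0.42), with adjusted p of 0.205 or more by edgeR.

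In the libraries labelled KO, the same treatment was compared to ask whether the response is present under that label, whose untreated libraries held 11 and 7 counts of *Gm13507*. *Jag1* and *Notch2* were called higher, 2 of 8 against 4.25% of all tested genes, and *Notch1* and *Hes1* lower, 2 of 8 against 2.57%. The median absolute log2 fold change was 0.70 over the members and 0.30 over all tested genes. The log2 fold changes of the others were -0.46 ± 0.38 for *Dll1*, -0.23 ± 0.43 for *Jag2*, -0.14 ± 0.75 for *Hey1* and 0.03 ± 0.18 for *Lfng*, with adjusted p of 0.508 or more by edgeR.

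**Figure D3:**
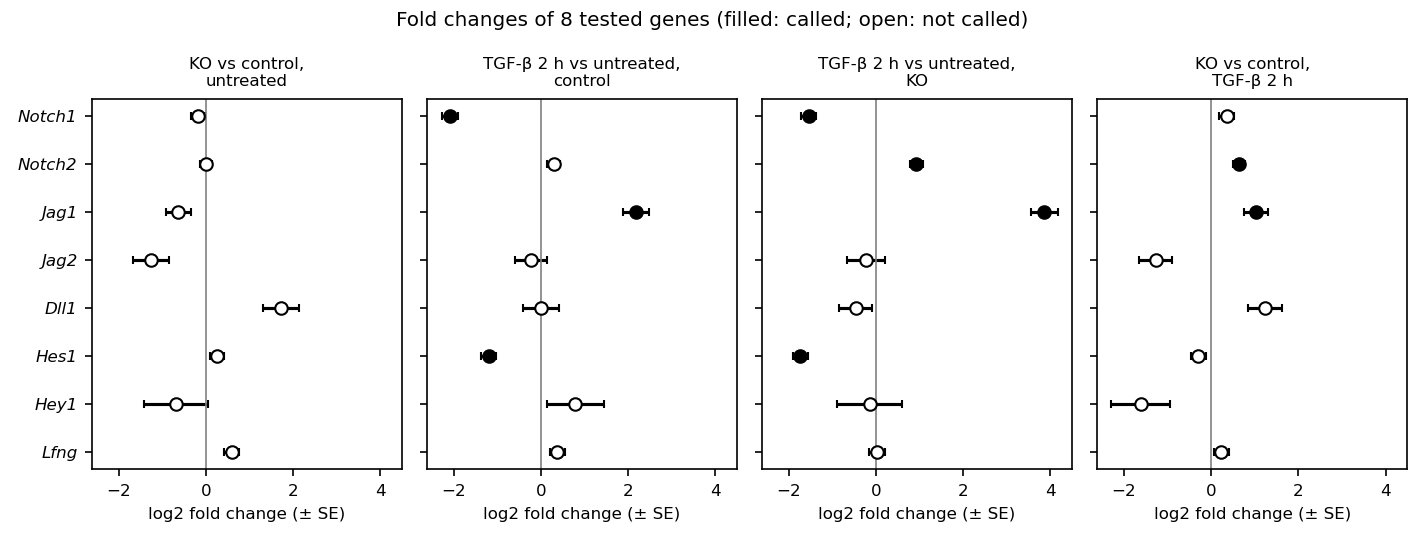
Log2 fold change (x axis, bars are ± SE) of the 8 tested Notch genes in the 4 comparisons, with filled points for called genes and open points for the others. Notch1 (-2.08 and -1.54), Hes1 (-1.19 and -1.73) and Jag1 (2.18 and 3.86) are called with TGF-β in both genotypes.

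Whether the response to TGF-β differs between the genotypes was tested with the interaction of genotype and treatment. The response of *Jag1* was larger by 1.67 ± 0.40 on the log2 scale in libraries labelled KO (edgeR, adjusted p = 0.43). For *Notch2* the difference was 0.64 ± 0.20 (edgeR, adjusted p = 0.474) and for *Hes1* -0.54 ± 0.24 (edgeR, adjusted p = 0.567). By edgeR, 0 of 8 members and 0% of all tested genes were called. An unadjusted p under 0.05 was held by 3 of the 8 members and by 1134 of all 13028 tested genes. DESeq2 called 1 member, *Jag1* (adjusted p = 0.00847), and 30 of all genes, and limma-voom called 0 of both. The differences for *Notch1* (0.54 ± 0.25), *Lfng* (-0.35 ± 0.25), *Dll1* (-0.47 ± 0.57), *Hey1* (-0.93 ± 1.00) and *Jag2* (-0.01 ± 0.51) were not called. The treatment effects in the genotypes were thus not shown to differ by the main test.

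In untreated cells, libraries labelled KO were compared with control libraries to ask how the genotypes differ before treatment. *Gm13507* itself, at 11 and 7 counts against 3 and 14, did not separate these libraries. The highest log2 fold change was that of *Dll1*, 1.72 ± 0.41 (edgeR, adjusted p = 0.0792), and the lowest that of *Jag2*, -1.25 ± 0.41 (edgeR, adjusted p = 0.188). *Jag1* was at -0.63 ± 0.29, *Lfng* at 0.59 ± 0.18, *Hes1* at 0.25 ± 0.16, *Notch1* at -0.18 ± 0.17, *Notch2* at 0.01 ± 0.14 and *Hey1* at -0.68 ± 0.74. By edgeR, 0 of 8 members were called, against 1.83% of all tested genes. An unadjusted p under 0.05 was held by 3 of the 8 (*Dll1*, *Lfng* and *Jag2*) and by 1936 of all 13028 tested genes. DESeq2 called 1, *Dll1* (adjusted p = 0.0321), and limma-voom called 0. Without control_TGFb2h replicate 1 or replicate 2, libraries outside this comparison that enter the shared estimate of spread, *Dll1* was called by edgeR at 1.69 (adjusted p = 0.0418 and 0.0406). The median absolute log2 fold change was 0.61 over the members and 0.25 over all tested genes. The 3 largest absolute values, of *Dll1*, *Jag2* and *Hey1*, came from genes with few counts and had the largest SE. The part of count level in this contrast was not tested.

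In treated cells, the genotypes were compared to ask which members differ after TGF-β. *Notch2* was 1.57-fold higher in libraries labelled KO than in control libraries (log2 fold change 0.65 ± 0.14, edgeR, adjusted p = 0.0154) and *Jag1* 2.06-fold higher (1.04 ± 0.27, edgeR, adjusted p = 0.0332). These were 2 of 8 members called higher, where 8.47% of all tested genes were, and edgeR called 0 of 8 lower, where 6.57% of all tested genes were. By edgeR, 5 of 8 members had an unadjusted p under 0.05, as did 4086 of all 13028 tested genes. The other tools called 2 (DESeq2) and 3 (limma-voom) members in either direction, and 2172 and 2073 of all tested genes. The additional call of limma-voom was *Jag2*, lower in libraries labelled KO (-1.25 ± 0.37, limma-voom, adjusted p = 0.0478). *Jag2* was at -1.26 ± 0.38 (edgeR, adjusted p = 0.0544), *Dll1* at 1.25 ± 0.39 (0.0611) and *Hey1* at -1.61 ± 0.67 (0.133), without a call, as were *Notch1* (0.36 ± 0.18), *Hes1* (-0.29 ± 0.17) and *Lfng* (0.24 ± 0.18). The median absolute log2 fold change was 0.85 over the members and 0.37 over all tested genes. The largest absolute values were again those of *Hey1*, *Jag2* and *Dll1*, which had few counts. All 4 comparisons share libraries, so their values are not independent of each other.

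The call of *Jag1* in treated cells was lost in 6 of the 8 edgeR fits that left out a library. Its log2 fold change was 0.61 without KO_TGFb2h replicate 2 (edgeR, adjusted p = 0.211) and 0.77 without control_TGFb2h replicate 2 (0.127). It stayed at 1.04 without either untreated control library (0.0521 and 0.0519) or either untreated library labelled KO (0.0655 and 0.0657), fits in which the shared spread rests on fewer libraries. With the replicate block it was 1.02 (0.0599), and from the 4 treated libraries alone 1.05 (0.118). *Notch2* kept its call in the block, but not from the 4 treated libraries alone (0.66, edgeR, adjusted p = 0.0864), without control_TGFb2h replicate 2 (0.60, 0.0534) or without KO_TGFb2h replicate 2 (0.54, 0.112). *Dll1* was called without control_TGFb2h replicate 1 (1.75, 0.0293) and *Hey1* without KO_TGFb2h replicate 1 (-3.08, 0.0417), the latter resting on 7 counts in the library that remained. A fit without a treated library leaves that group with 1, assumed to vary like the other groups. *Notch2* and *Hey1* lie on chromosome 3, whose 641 tested genes had a median log2 fold change of -0.34 in libraries labelled KO against control libraries in both states, while the 1089 of chromosome 2, with *Notch1* and *Jag1*, had a median of 0.02. The part of the chromosome in these values was not tested.

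**Figure D4:**
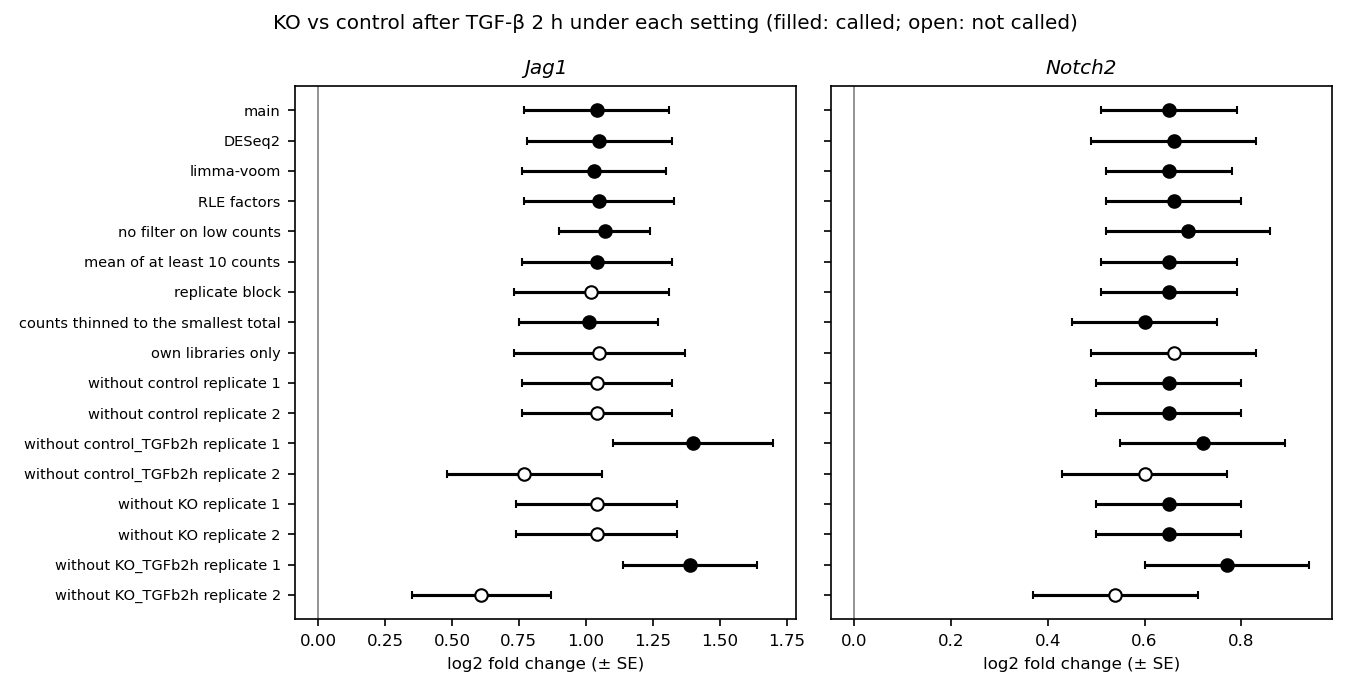
Log2 fold change (x axis, bars are ± SE) of Jag1 and Notch2 between treated libraries labelled KO and treated control libraries under the main setting and each alternative planned, with filled points where the gene was called. All values are above 0, from 0.61 to 1.40 for Jag1 and from 0.54 to 0.77 for Notch2.

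Beyond the 10 members, 47 further genes of the pathway were listed by role, and 36 passed the filter on low counts. The ligands *Dll3*, *Dll4*, *Dlk1* and *Dner*, the Fringe gene *Mfng*, *Dtx1* and the *Hes* and *Hey* genes *Hes2*, *Hes3*, *Hes5*, *Hes7* and *Hey2* did not. With TGF-β in control cells, 3 of the 36 were called higher and 4 lower, against 4.69% and 4.47% of all tested genes, and in libraries labelled KO 3 higher and 2 lower, against 4.25% and 2.57%. The median log2 fold change of the 36 was -0.09 in control cells and 0.13 in libraries labelled KO, and that of all tested genes 0.02 and 0.00. The counts depended on the libraries used, being 2 and 3 in control cells without control replicate 1 and 2, 4 without KO replicate 1 or 2, and 1 in libraries labelled KO without KO replicate 1 or 2.

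*Neurl1b*, an E3 ubiquitin ligase that acts in ligand endocytosis, fell with TGF-β from 197 and 165 CPM to 31.9 and 27.0 CPM in control libraries and from 208 and 207 CPM to 35.5 and 39.9 CPM in libraries labelled KO. The log2 fold changes were -2.62 ± 0.16 and -2.46 ± 0.16 (edgeR, adjusted p = 0.000238 and 0.000313). *Dlk2*, a non-canonical ligand, fell as well, from 28.9 and 18.4 to 5.81 and 5.29 CPM and from 36.8 and 41.7 to 11.5 and 14.3 CPM. Its log2 fold changes were -2.09 ± 0.27 and -1.61 ± 0.25 (edgeR, adjusted p = 0.00265 and 0.00633). *Fbxw7*, which codes for the substrate receptor of a ubiquitin ligase that marks the Notch intracellular domain for degradation, rose in both genotypes (log2 fold change 1.08 ± 0.16 and 0.93 ± 0.17, edgeR, adjusted p = 0.00543 and 0.0117). For these 3 genes treated and untreated libraries did not overlap within a genotype.

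Called in control cells and not in libraries labelled KO were *Dtx4*, a Deltex ubiquitin ligase (1.89 ± 0.31), *Snw1*, a transcriptional cofactor and splicing factor (0.60 ± 0.14), *Spen*, a corepressor (-0.98 ± 0.22), and *Pofut1*, which adds fucose to the receptors (-0.62 ± 0.15), with adjusted p of 0.00747 to 0.0328 by edgeR. In libraries labelled KO their log2 fold changes had the same sign, 0.97 ± 0.29 for *Dtx4*, 0.15 ± 0.14 for *Snw1*, -0.65 ± 0.22 for *Spen* and -0.33 ± 0.15 for *Pofut1*, with adjusted p of 0.0828 or more. *Snw1* shares 945 exon bases with a gene on the opposite strand that had 2036 counts, so its value is uncertain, while *Spen* and *Dlk2* share 41 and 51 exon bases with such genes. Among the genes called in libraries labelled KO and not in control cells was *Furin*, the convertase that cleaves the receptor precursor (1.31 ± 0.18, edgeR, adjusted p = 0.0041). *Furin* was at 132 and 118 CPM in untreated and 143 and 105 CPM in treated control libraries, and at 121 and 121 CPM in untreated and 265 and 334 CPM in treated libraries labelled KO. No interaction was called among the 36 genes by edgeR or limma-voom, while DESeq2 called 1. By edgeR, 2 of the 36 had an unadjusted p under 0.05, against 1134 of all 13028 tested genes. The 2 were *Furin* (1.31 ± 0.26, edgeR, adjusted p = 0.392) and *Snw1* (-0.45 ± 0.20, edgeR, adjusted p = 0.572).

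Between untreated genotypes 0 of the 36 were called by edgeR, DESeq2 or limma-voom, 6 had an unadjusted p under 0.05 by edgeR, and 1 was called by edgeR without either treated control library. Of all 13028 tested genes, 1936 had such an unadjusted p by edgeR. After TGF-β, 5 of the 36 were called higher and 1 lower in libraries labelled KO, against 8.47% and 6.57% of all tested genes. The 5 were *Notch4*, a receptor known from endothelium (1.98 ± 0.43), *Furin* (1.27 ± 0.18), *Dlk2* (1.21 ± 0.27), *Hes6*, an inhibitor of HES1 (0.94 ± 0.27), and *Mib2*, a ligand ubiquitin ligase (0.78 ± 0.23), and the sixth was *Snw1* (-0.65 ± 0.14), with adjusted p of 0.00378 to 0.0493 by edgeR. *Notch4* was rare, with 14 and 10 counts in treated control libraries and 54 and 64 in treated libraries labelled KO. Between untreated genotypes none of these 6 was called. Their log2 fold changes there were 2.05 ± 0.50 for *Notch4*, 0.87 ± 0.28 for *Hes6* and 0.73 ± 0.25 for *Dlk2*. Those of the others were 0.43 ± 0.23 for *Mib2*, -0.04 ± 0.18 for *Furin* and -0.21 ± 0.14 for *Snw1*. The 6 calls became 2 without control_TGFb2h replicate 2, 3 without KO_TGFb2h replicate 1 and 1 without KO_TGFb2h replicate 2. The median log2 fold change was 0.35 over the 36 and -0.01 over all tested genes.

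**Figure D5:**
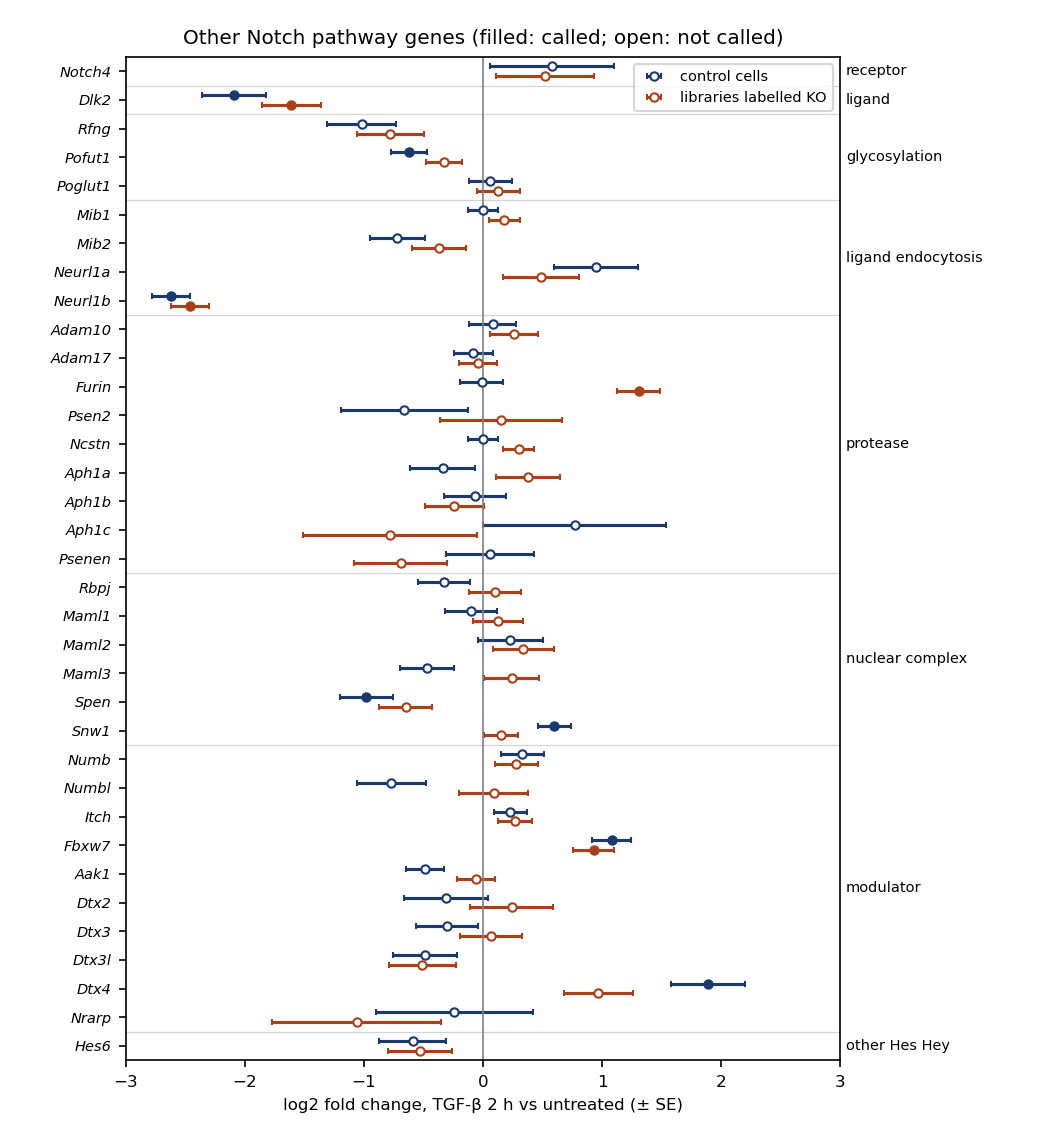
Log2 fold change with TGF-β (x axis, bars are ± SE) of the other tested Notch pathway genes reported here, in control and in KO libraries, grouped by role, with filled points for called genes. Neurl1b (-2.62 and -2.46) and Dlk2 (-2.09 and -1.61) are called lower and Fbxw7 (1.08 and 0.93) higher in both genotypes.

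The genes whose log2 CPM over the 8 libraries was most like that of each called member are given as a description, since all share these libraries and their 4 groups. For *Notch1* they were *6530418L21Rik* (Pearson r = 0.991), *Zfp689* (0.986) and *Smpd4* (0.985). For *Notch2* they were *Cited2* (0.987), *5430411K18Rik* (0.982) and *Dock5* (0.981). For *Jag1* they were *Rras* (0.998), *Fosl2* (0.991) and *Rbm18* (0.990), and for *Hes1* they were *Plekha8* (0.991), *Gm15376* (0.987) and *Ppargc1a* (0.982).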

How the data were processed

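The RNA of NMuMG cells had been sequenced in 2 libraries for each of 4 groups, which were taken from the sample labels. For each gene, the authors deposited raw read counts, not normalized, in a table of the 8 libraries, and no column was left without a sample. The study's methods name subjunc, removal of duplicates and DESeq2, with the mm10 and mm9 assemblies, whereas the submitters' processing notes name HISAT2, limma and mm10. The methods and the labels also differ on RNA isolation, kit and sequencer. How reads were counted, and with which strand setting, is not given in the sources used here, so reads of a gene and of an opposite-strand partner may not have been told apart. Duplicate removal can lower the counts of abundant transcripts. All 37310 identifiers stand in the order of GENCODE vM1 on mm9, which gave gene positions and exon lengths. Exon lengths merge all annotated transcripts of a gene, which can understate the level per kilobase of genes with many.

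The tests and the TMM-scaled CPM come from edgeR 4.0.16 (R 4.3.3). Genes that passed filterByExpr over the 4 groups (13028) were fitted with glmQLFit over all 8 libraries, without a block, and tested with glmQLFTest and Benjamini-Hochberg adjustment over all of them. Calls needed an adjusted p under 0.05 and a log2 fold change of over 0.5 in either direction, and for the interaction the adjusted p alone. The SE is the absolute log2 fold change divided by the square root of F. The biological coefficient of variation was 0.18. The study's methods call the replicates biological, while neither they nor the labels say whether these were separate cultures or clones, so p-values measure the spread between these libraries. The members and lists were chosen with earlier results of these data known. All 10 members were named, with the called genes of the pathway list apart from a gene not reported here, the genes at an unadjusted p under 0.05 in the interaction (added after their values were seen), treatment and cell type markers, and for each called member the 3 tested genes with the highest Pearson r of log2 CPM (prior count 2).

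Alternatives were DESeq2 1.42.0, limma-voom (limma 3.58.1), RLE factors, no filter, a filter at a mean of 10 counts, a replicate block, thinning to the smallest library, the libraries of a comparison alone and each library left out. Totals ranged from 4297832 to 13574397 counts, and rare transcripts such as *Hey1* rest on few counts.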

Additional observations from a re-analysis of the deposited data

How the results depend on the processing

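With TGF-β, the members called numbered 3 in control cells (2 to 3 with a library left out) and 4 in libraries labelled KO (3 to 4), and these counts were the same in each other alternative. Between untreated genotypes 0 members were called, but 1 by DESeq2 (*Dll1*) and 2 (*Jag1* and *Dll1*) both without a filter and from the comparison's own libraries, and 0 to 1 with a library left out. Between treated genotypes 2 were called, but 4 without a filter, 1 with the replicate block and 0 from the own libraries, and 0 to 3 with a library left out. In the interaction 1 member was called by DESeq2 and 1 without a filter, and none with a library left out by edgeR. Of the other pathway genes, 4 (no filter) and 1 (own libraries) were called between untreated genotypes, 1 from the own libraries between treated genotypes, and 1 by DESeq2 and 1 without a filter in the interaction. With a library left out their counts ran from 0 to 1 (untreated genotypes), 2 to 7 (TGF-β in control cells), 1 to 6 (TGF-β in libraries labelled KO) and 1 to 9 (treated genotypes). The cause of these shifts was not tested.

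Of 632 settings of single members, 569 kept direction and call and 35 reversed, none of them of a called value. *Notch2* between untreated genotypes (0.01) was -0.02 without a filter and -0.02 in thinned counts, and -0.05 to 0.08 with a library left out. *Dll1* with TGF-β in control cells was -0.004 with DESeq2, -0.04 with limma-voom, -0.002 with RLE factors, -0.0009 without a filter, -0.003 at a mean of 10 counts, -0.05 with the replicate block, -0.20 in thinned counts, -0.001 from the own libraries and -0.51 to 0.34 with a library left out. With TGF-β in libraries labelled KO, *Hey1* was 0.27 in thinned counts. In the interaction, *Jag2* was 0.004 with RLE factors, 0.06 without a filter and 0.02 in thinned counts. With a library left out, the values were -1.60 to 0.83 for *Hey1*, -0.49 to 0.0008 for *Jag2* and -0.10 to 0.19 for *Lfng* with TGF-β in libraries labelled KO, and -0.26 to 0.22 for *Jag2*, -0.79 to 0.05 for *Dll1* and -2.38 to 0.04 for *Hey1* in the interaction.

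Libraries share only the numbers 1 and 2. Deviations of same-numbered libraries correlated between -0.47 (the treated groups) and 0.30 (control and control_TGFb2h), so the replicate block was an alternative. It moved calls over all genes from 238 to 150 between untreated and from 1959 to 1490 between treated genotypes, and changed no member's call besides *Jag1* between treated genotypes. With the numbers of the treated libraries labelled KO exchanged, a choice made after seeing the data, 5 members were called between treated genotypes. Under that setting 2809 of all 13028 tested genes were called. Over all genes, the 238 calls between untreated genotypes became 428 with DESeq2, 137 with limma-voom, 756 without a filter and 797 from the own libraries (41 to 393 with a library left out), and the share that was higher, 56.3%, became 43.4% without a filter. The 1959 calls between treated genotypes became 402 from the own libraries. Of the fits with a library left out, that without KO_TGFb2h replicate 2 gave the fewest. With TGF-β, 1194 calls in control cells became 2021 without a filter, 483 from the own libraries and at lowest 139 without control replicate 1, and 889 in libraries labelled KO became 1832 without a filter and at lowest 136 without KO replicate 1. Depth limits *Hey1*, *Jag2* and *Dll1*, which had fewer than 100 counts in every library.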
